A study of Mus musculus with 2 samples.

Results

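The genes described here carry out mitosis, the stage at which a dividing cell condenses its chromosomes, attaches them to a spindle and pulls them apart. A list of 53 such genes was followed, from cyclins and kinases to kinesins, kinetochore proteins and condensin, in regulatory T cells (Tregs) with and without Hopx, a small homeodomain-only cofactor that does not itself bind DNA. Members were found by their gene symbol in the array annotation, and 52 of the 53 were measured, by 121 probe sets, among 18193 genes in all. Ccnb1, which encodes cyclin B1, had no probe set under its symbol and is not analysed here.

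The 2 samples were 1 array of Hopx-sufficient and 1 array of Hopx-/- cells, called Hopx-deficient below. Both held total RNA of mouse Tregs that dendritic cells had induced in vivo after immunization and that were sorted ex vivo for CD25 and Foxp3. Strain, age, the form of the Hopx allele and the number of mice behind each array are not given in the sources used here. The quantity given is the log2 difference between the arrays, with Hopx-sufficient subtracted from Hopx-deficient, so a negative value means a lower signal without Hopx, and a gene's value is the mean over its probe sets. The deposited table had been centred on the mean of both arrays for each probe set, so each array's value is the mirror image of the other's, no signal level can be read, and whether the labelled cell type's markers were detected cannot be checked. The steps between the stored values give at most a coarse bound: they place 26 of the 121 member probe sets (21.5%), among them 3 of the 4 for Foxm1, below 8 on the log scale on at least 1 array, against 39.8% of all probe sets with a single symbol. Since each genotype has 1 array, the differences carry no error between replicates and no test was possible, and "higher" and "lower" describe these 2 arrays only. Nor can fewer dividing cells be told apart from less RNA of these genes per cell.

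A cell enters mitosis when Cdk1, the mitotic cyclin-dependent kinase, is bound by A- and B-type cyclins and freed of inhibitory phosphates by Cdc25 phosphatases. Aurora and Polo-like kinases then build the spindle, and a checkpoint holds the chromosomes together until every kinetochore is attached. After that the anaphase-promoting complex (APC/C) marks cyclin B and securin for destruction, and separase cuts the remaining links. Tregs divide when stimulated in vivo, and proteins such as Ki-67 and Top2a are widely used to mark dividing lymphocytes.

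Most mitosis genes were slightly lower in Hopx-deficient cells, and a few were higher. Of the 52 measured, 37 were below 0 and 15 above, against 49.9% of all genes below 0 and 50.1% above. Their median was -0.12, which is a 1.08-fold difference, against 0.00078 over all genes. The values ran from -0.52 for Cdk1 to 0.53 for Ccnb2, which encodes cyclin B2. No member was 1.5-fold apart in either direction, a size passed by 1.31% of all genes as lower and 0.297% as higher. A smaller size, 0.322 on the log2 scale, was passed by Cdk1 and Espl1 as lower (3.85% of members) and by 6.93% of all genes. It was passed by Ccnb2, Cenpa, Kif15 and Cdc25b as higher (7.69% of members) and by 4.09% of all genes. These shares rest on 2 and 4 members, too few to set them apart from those of all genes.

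How far probe sets of a single gene differ among themselves gives a rough scale for these sizes. All come from the same 2 arrays, so variation between mice or arrays is not part of it. The standard deviation of probe sets of a single gene was 0.18 over all genes and 0.16 over the members. The absolute differences of 30 of the 52 members were smaller than the former, though many of these values are means of several probe sets. Among the 37 members with more than 1 probe set, all probe sets were below 0 in 18 and all above 0 in 4, namely Cdc20, Cenpf, Smc4 and Kif22. The probe sets of the other 15 lay on both sides. Such counts were not taken over all genes with several probe sets, so they are not read as a result about the members. Spike-in controls, bacterial and phage transcripts added at hybridization, lay between -0.22 and 0.01, their median being -0.12. Of the members 28 lay within that range, 9 below it and 15 above it, and the median of the mitosis genes was no further from 0 than that of the spike-ins. The shares of all genes within 0.18 of 0 and within the spike-in range were not counted. The counts of members at these sizes are therefore not read as a result about the members. The median absolute difference was 0.16 over the members and 0.12 over all genes. The part of a technical shift in the result was not tested.

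**Figure D1:**
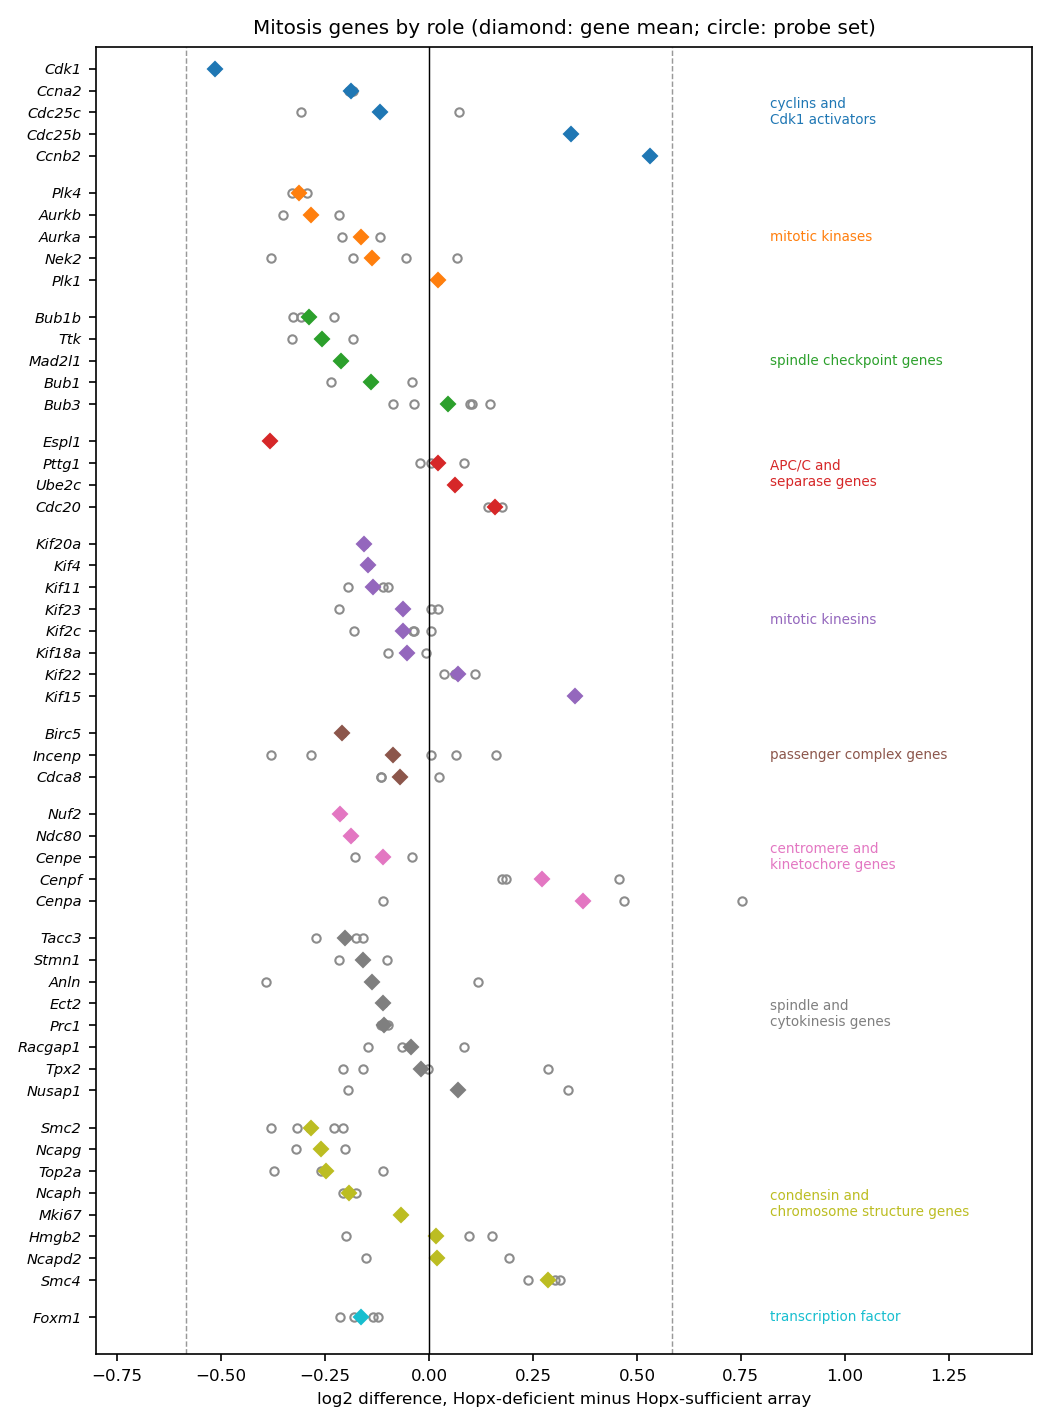
Each row is a measured mitosis gene; the horizontal axis is the log2 difference, Hopx-deficient minus Hopx-sufficient, with 1 array each. Diamonds are gene means coloured by role, open circles are probe sets and dashed lines mark 1.5-fold; all diamonds lie between the dashed lines, from Cdk1 at -0.52 to Ccnb2 at 0.53.

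Cdk1 and its partner cyclin B2 differed in opposite directions. Cdk1 had a deposited value of 0.25 on the Hopx-sufficient and -0.25 on the Hopx-deficient array, from 1 probe set, and after centring was 1.43-fold lower. Only 2.04% of all genes had a lower value. Ccnb2 went the other way, with deposited values of -0.27 and 0.27, also from 1 probe set. It was 1.44-fold higher, and 99.5% of all genes had a lower value. These 2 were the only members outside the central 95% of all genes, which ran from -0.48 to 0.38. By the definition of that band, a list of this length would be likely to have a few genes outside it. The count is therefore not read as a result about the members. Ccna2, encoding cyclin A2, was lower at -0.19, with its probe sets at -0.19 and -0.18. Of the phosphatases, Cdc25b was 1.27-fold higher by 1 probe set, while the 2 probe sets of Cdc25c disagreed, at -0.31 and 0.07.

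Because Cdk1 and Ccnb2 lie at opposite ends of the list, the letters before their transcription starts are shown with those of the next members at each end. Many mitotic genes carry a cell cycle genes homology region (CHR, here TTTGAA), bound by the DREAM and MuvB complexes, and CCAAT boxes, bound by NF-Y. The 250 bases before the start are given for Ccnb2, Cenpa and Kif15, the 3 highest members, and for Cdk1, Espl1 and Plk4, the 3 lowest. Sequences and starts are from RefSeq (GRCm38.p6), and capitals mark TTTGAA and CCAAT on either strand.
Ccnb2, chr9:70421555-70421804, minus strand: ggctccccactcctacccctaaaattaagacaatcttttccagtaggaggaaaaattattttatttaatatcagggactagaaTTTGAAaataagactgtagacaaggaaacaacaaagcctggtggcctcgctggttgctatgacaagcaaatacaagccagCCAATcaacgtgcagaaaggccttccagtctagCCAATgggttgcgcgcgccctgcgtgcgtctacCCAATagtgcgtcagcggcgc
Cenpa, chr5:30666636-30666885, plus strand: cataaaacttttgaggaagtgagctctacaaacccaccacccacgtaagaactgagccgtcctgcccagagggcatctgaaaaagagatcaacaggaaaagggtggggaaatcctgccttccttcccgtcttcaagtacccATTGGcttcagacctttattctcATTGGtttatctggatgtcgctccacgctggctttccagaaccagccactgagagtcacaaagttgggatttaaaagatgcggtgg
Kif15, chr9:122950831-122951080, plus strand: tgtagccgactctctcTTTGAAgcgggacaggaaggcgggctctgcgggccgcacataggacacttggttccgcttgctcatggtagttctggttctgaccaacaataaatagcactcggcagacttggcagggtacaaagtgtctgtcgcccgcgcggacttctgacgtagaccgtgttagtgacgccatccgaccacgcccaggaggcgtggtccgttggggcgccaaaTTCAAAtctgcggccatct
Cdk1, chr10:69352913-69353162, minus strand: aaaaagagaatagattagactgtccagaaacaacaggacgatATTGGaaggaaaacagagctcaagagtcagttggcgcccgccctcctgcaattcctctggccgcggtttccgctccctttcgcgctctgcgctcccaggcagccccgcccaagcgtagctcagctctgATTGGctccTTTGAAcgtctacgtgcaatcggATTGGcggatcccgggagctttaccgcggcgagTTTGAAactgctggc
Espl1, chr15:102296043-102296292, plus strand: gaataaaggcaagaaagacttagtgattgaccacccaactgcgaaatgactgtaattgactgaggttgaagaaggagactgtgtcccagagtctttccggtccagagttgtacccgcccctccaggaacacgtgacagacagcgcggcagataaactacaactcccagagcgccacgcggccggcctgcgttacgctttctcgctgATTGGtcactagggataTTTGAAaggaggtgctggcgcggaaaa
Plk4, chr3:40799701-40799950, plus strand: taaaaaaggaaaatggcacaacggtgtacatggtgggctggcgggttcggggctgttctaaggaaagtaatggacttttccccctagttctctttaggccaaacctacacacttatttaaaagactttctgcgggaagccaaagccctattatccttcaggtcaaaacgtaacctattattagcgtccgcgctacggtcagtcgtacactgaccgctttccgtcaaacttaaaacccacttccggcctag
TTTGAA was found at both ends of the list, and at each end 1 of the 3 members had no CCAAT box. Counted back from the start, Cdk1 had TTTGAA beginning at -71 and -15, Espl1 at -27 and Kif15 at -234 and, on the other strand, at -19. Ccnb2 had it at -167 and again from base 5 of the transcript, outside the printed stretch, along with 3 CCAAT boxes. Cenpa had it from base 17 of the transcript, also outside the printed stretch, and 2 CCAAT boxes before the start. Kif15 had no CCAAT box. Plk4 had neither sequence.

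Windows from 250 bases before to 50 after the start were given for 43 of the measured members. TTTGAA, on either strand, was present in 30 of them (69.8%), against 15.7% of 14452 measured genes with a window. Within 50 bases of the start on either side it was present in 27 members (62.8%), against 4.09% of those genes. CCAAT was present in 69.8% of members and 42.0% of genes, and 26 members held both. A strict E2F site (TTTCCCGC, TTTCGCGC, TTTGCCGC or TTTGGCGC) was present in 5 members (11.6%) and in 3.81% of genes. None of the searched sequences contains another, and a match is a description of the sequence, not a bound site.

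The letters were found in both higher and lower members. Members with TTTGAA had a median difference of -0.07, with 19 lower and 11 higher. Those without it had a median of -0.14, with 10 lower and 3 higher. Over all measured genes the medians were -0.0063 with TTTGAA and 0.00086 without. The 9 members with neither TTTGAA nor CCAAT had a median of -0.20, and 7 of them were lower. The lower ones were Plk4, Nuf2, Mad2l1, Birc5, Tacc3, Ncaph and Kif18a (-0.05), and the higher ones Pttg1 (0.02) and Nusap1 (0.07). The share lower among all genes with neither sequence was not counted, so this is not read as a result about the members. The 26 with both spanned the whole range of the list, from Cdk1 to Ccnb2.

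**Figure D2:**
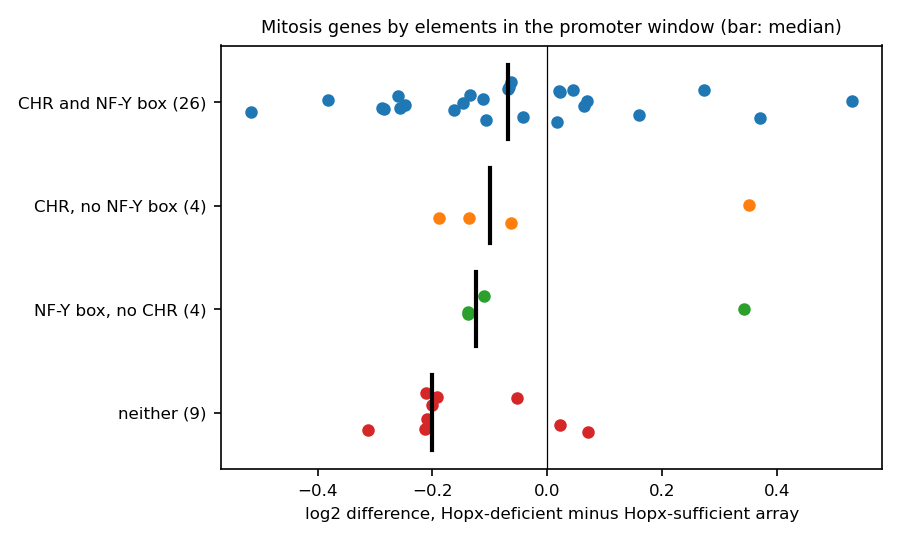
Log2 difference (horizontal axis, Hopx-deficient minus Hopx-sufficient, 1 array each) of the 43 mitosis genes with a promoter window, split by whether the window holds the CHR and the NF-Y box (the CCAAT letters). Points are genes, shifted vertically at random within a row, and black bars are medians; the 26 genes with both run from -0.52 to 0.53.

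Of the mitotic kinases 4 of 5 were lower, with a median of -0.16 (-0.33 with the furthest probe set). Plk4, which starts the duplication of centrioles, was 1.24-fold lower, and its 3 probe sets agreed closely, between -0.33 and -0.29. Aurkb, the kinase of the chromosomal passenger complex, had probe sets at -0.35 and -0.22 and was 1.22-fold lower. Aurka, which acts at the spindle poles, stood at -0.16, with probe sets at -0.21 and -0.12. Nek2, a kinase that separates the centrosomes, stood at -0.14 with 4 probe sets spread from -0.38 to 0.07. Plk1, the main Polo-like kinase of mitosis, was at 0.02 by 1 probe set.

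The spindle checkpoint, which delays anaphase until the chromosomes are attached, was lower in 4 of 5 genes, with a median of -0.21. Bub1b, encoding BubR1, was 1.22-fold lower, with 3 probe sets between -0.33 and -0.23. Ttk, encoding the Mps1 kinase, had probe sets at -0.33 and -0.18 (1.19-fold lower). Mad2l1, whose product binds and holds back Cdc20, was at -0.21 by 1 probe set, and Bub1 at -0.14, with probe sets at -0.24 and -0.04. Bub3 was the exception at 0.04, with 5 probe sets between -0.09 and 0.15.

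The genes that act downstream of the checkpoint were split. Cdc20, the activator of the APC/C, was 1.12-fold higher with all 3 probe sets between 0.14 and 0.18. The deposited values of these probe sets lay between -0.09 and -0.08 on the Hopx-sufficient array and between 0.08 and 0.09 on the other. Ube2c, a ubiquitin-conjugating enzyme of the APC/C, was at 0.06, and Pttg1, encoding securin, at 0.02. Espl1, which encodes separase, was 1.30-fold lower by 1 probe set. The APC/C and separase genes together had a median of 0.04.

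Kinesins, the motors that slide spindle microtubules and carry chromosomes, were lower in 6 of 8 cases, with a median of -0.06 (-0.15 with the probe set furthest from 0 standing for each gene). Kif20a (-0.16), Kif4 (-0.15) and Kif11 (-0.13) were the lowest. Kif11, which pushes the spindle poles apart, had all 3 probe sets below 0, between -0.20 and -0.10. Kif23 (-0.06), a motor of the central spindle, Kif2c (-0.06), which depolymerizes microtubules at centromeres, and Kif18a (-0.05) lay closer to 0. Of the 2 probe sets of Kif18a, 1 had a deposited value of 0 on both arrays. Only through the centring is Kif18a among the members with all probe sets below 0. Kif23 had 1 probe set at -0.22 and 2 above 0, up to 0.02, and those of Kif2c ran from -0.18 to 0.0042. Kif22, a chromosome arm motor, was at 0.07 with its 3 probe sets between 0.04 and 0.11. Kif15, which can act beside Kif11, was 1.28-fold higher by 1 probe set.

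The passenger complex, in which Aurkb works with 3 partners at centromeres, was lower by the probe set mean in all 3 genes counted here. Their median was -0.09 (-0.21 with the furthest probe set). Birc5, encoding survivin, was at -0.21 by 1 probe set. Incenp, the scaffold, was at -0.09, but its 5 probe sets ran from -0.38 to 0.16, and 3 of them were above 0. Cdca8, encoding borealin, was at -0.07, with probe sets from -0.12 to 0.02.

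Centromere and kinetochore genes divided into lower and higher members. Nuf2 and Ndc80, which pair in the complex that grips microtubules, were close to each other at -0.21 and -0.19, each by 1 probe set. Cenpe, a kinetochore motor, was at -0.11. Cenpa, the histone H3 variant that marks centromeres, was 1.29-fold higher, but its probe sets were at -0.11, 0.47 and 0.75. Cenpf, a large kinetochore protein made late in the cell cycle, was 1.21-fold higher, its 3 probe sets running from 0.18 to 0.46. The median of this group was -0.11, and with 5 genes it turned to 0.08 when probe sets ending in _s_at, _x_at or _a_at were left out, which removes Nuf2, and to 0.27 over the genes with 2 or more probe sets, so no direction is given for the group.

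Spindle and cytokinesis genes were lower in 7 of 8 cases (median -0.11). Tacc3, a spindle microtubule stabilizer, was at -0.20 with its 3 probe sets between -0.27 and -0.16. Stmn1, encoding the microtubule-destabilizing stathmin, was at -0.16, and Prc1, which bundles the central spindle, at -0.11 with probe sets at -0.12 and -0.10. Ect2 (-0.11), the exchange factor that starts the cleavage furrow, and Racgap1 (-0.04), its partner, were lower by little. For Anln, Tpx2 and Nusap1 the mean says little, since probe sets ran from -0.39 to 0.12, from -0.21 to 0.29 and from -0.19 to 0.34. Anln encodes the furrow protein anillin, and the products of Tpx2 and Nusap1 bind spindle microtubules.

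Condensin, the ring that compacts chromosomes, showed a contrast within a complex. Smc2 and Smc4 encode its 2 core subunits, which form a pair. All 5 probe sets of Smc2 were below 0, between -0.38 and -0.21, and the gene was 1.22-fold lower. Its deposited values lay between 0.10 and 0.19 on the Hopx-sufficient array and between -0.19 and -0.10 on the other. All 3 probe sets of Smc4 were above 0, between 0.24 and 0.31, and the gene was 1.22-fold higher. Its deposited values lay between -0.16 and -0.12 on the Hopx-sufficient array and between 0.12 and 0.16 on the other. The probe sets of the pair thus did not overlap, but all come from the same 2 arrays and do not replicate the difference. Of all genes, 8.71% had a lower value than Smc2 and 5.74% a higher value than Smc4. How often the probe sets of other gene pairs do not overlap was not counted.

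Of the other condensin subunits, Ncapg was at -0.26 and Ncaph at -0.19, each with both probe sets below 0, while the probe sets of Ncapd2 disagreed at -0.15 and 0.19. Top2a, the topoisomerase that untangles sister DNA, had probe sets at -0.37, -0.26 and -0.11 and was 1.19-fold lower. Mki67, encoding the proliferation marker Ki-67, was at -0.07 by 1 probe set. Hmgb2, a chromatin protein, was at 0.02 with probe sets from -0.20 to 0.15. Of the common markers of dividing cells, Mki67 was thus closer to 0 than Top2a.

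Foxm1 encodes a transcription factor that drives many genes of this list late in the cycle. Its 4 probe sets were all below 0, between -0.21 and -0.12, and its mean was -0.16. Among 15 genes for the DREAM and MuvB complexes and related E2F factors, which act on the same promoters, 8 were lower and 7 higher (median -0.13). Mybl2, encoding B-Myb, was at -0.49, the repressor gene E2f8 at -0.46, and Tfdp1, encoding a binding partner of E2F factors, at -0.41. Rbl2, which encodes a pocket protein of resting cells, had probe sets at 0.37 and 0.44 (1.32-fold higher).

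Other genes of the same pathway, outside the 53, also had a median below 0. Of 76 measured further mitosis genes, 63 were lower and 13 higher, and the median was -0.15. Lower by at least 1.5-fold were Trip13 (-0.67), an ATPase that resets the checkpoint protein Mad2, Cenph (-0.65), a centromere protein gene, and Cdc25a (-0.61), a phosphatase gene that also serves entry into DNA replication. Of the 76, 19 were lower by 0.322 or more, and 1 was higher by that much. The latter was Cdkn3, a phosphatase gene acting on Cdk1 and Cdk2, at 0.55 by 1 probe set. Over all genes the shares at this size were 6.93% lower and 4.09% higher, and 1.31% were at least 1.5-fold lower. Genes for the core of cohesin and the APC/C, which are made in resting cells too, had a median of -0.03, with 15 of 22 lower. The furthest from 0 there were Smc3 (-0.30), Rad21 (0.26) and Nipbl (0.25). Of 11 tubulin genes 8 were lower (median -0.12), led by the gamma-tubulin gene Tubg1 (-0.61), whose product nucleates microtubules, and by the epsilon-tubulin gene Tube1 (-0.50). The delta-tubulin gene Tubd1 was higher, at 0.32.

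**Figure D3:**
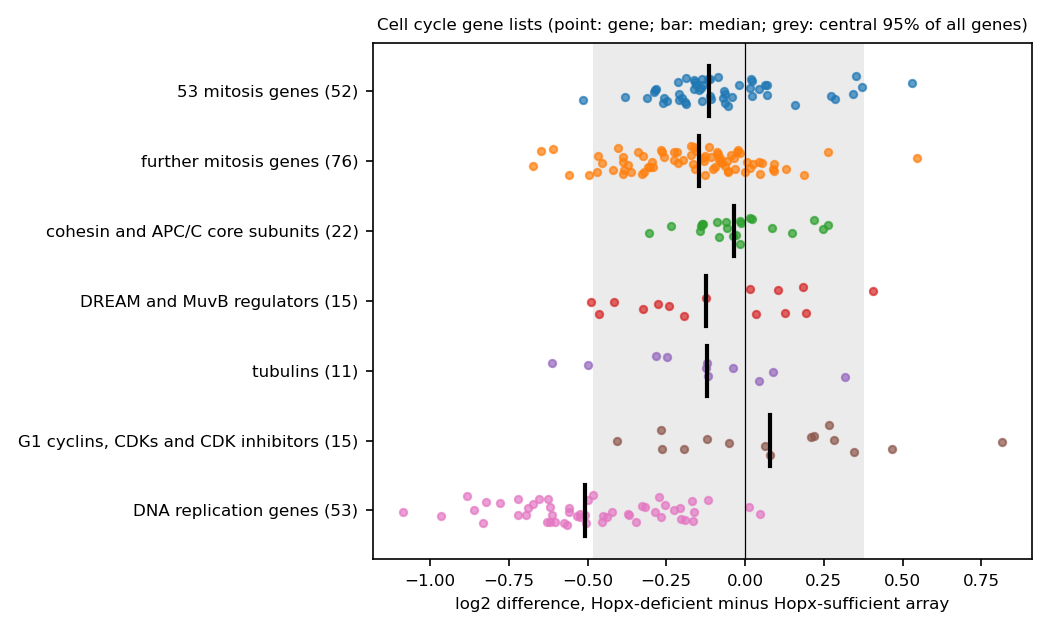
Log2 difference (horizontal axis, Hopx-deficient minus Hopx-sufficient, 1 array each) of the genes of 7 lists, with the number measured in brackets. Points are genes, shifted vertically at random, bars are medians and the grey band holds the central 95% of all genes, -0.48 to 0.38; the bar of the mitosis genes is at -0.12 and that of the DNA replication genes at -0.51.

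Genes of DNA replication, which comes earlier in the cell cycle than mitosis, had a much lower median. Of 53 measured genes of DNA replication 51 lay below 0. Their median was -0.51, a 1.42-fold difference. At least 1.5-fold lower were 1.31% of all genes. None of the mitosis genes was, but with 52 measured a count of 0 cannot be set apart from that share. Of the replication genes 19 (35.8%) passed this size. The furthest were Ung (-1.09), a uracil-removing repair enzyme gene, Cdc6 (-0.97) and Gins2 (-0.88), which serve the loading and firing of the replicative helicase. The other 16 past 1.5-fold, between -0.86 and -0.60, were Gins1, Ccne1, Uhrf1, Rfc3, E2f1, Orc6, Orc1, Tipin, Dut, Pole, Prim1, Pold1, Ccne2, Rfc4, Mcm2 and Mcm3. The difference between the replication and the mitosis genes was not tested, since each genotype has 1 array. Of 15 G1 cyclins, CDKs and CDK inhibitors, 9 were higher and 6 lower (median 0.08). Ccng2, encoding the quiescence-linked cyclin G2, was 1.76-fold higher, the inhibitor gene Cdkn2d was at 0.47 and the kinase gene Cdk4 at -0.41.

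**Figure D4:**
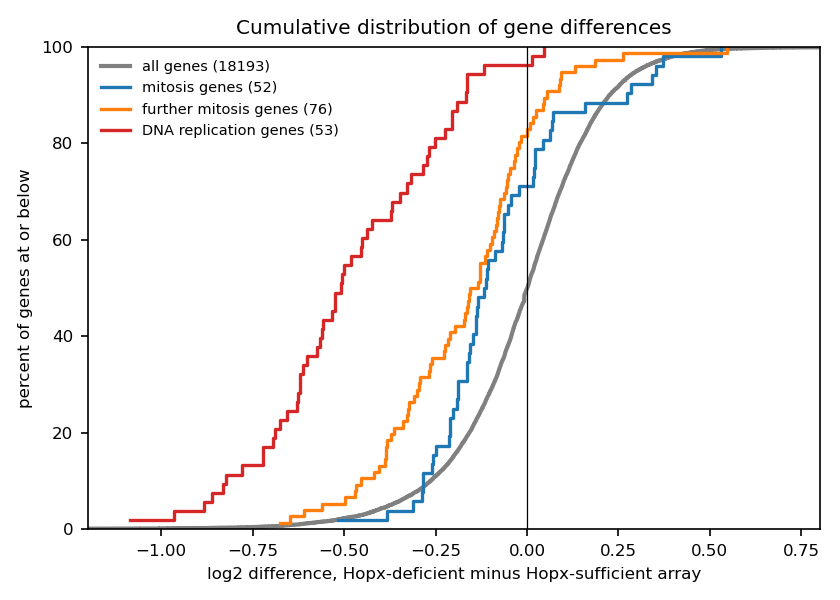
Percent of genes (vertical axis) at or below each log2 difference (horizontal axis, Hopx-deficient minus Hopx-sufficient, 1 array each) for all 18193 genes, 52 mitosis genes, 76 further mitosis genes and 53 DNA replication genes. At a difference of 0 the mitosis curve has taken in 37 of 52 genes, the further mitosis curve 63 of 76 and the replication curve 51 of 53.

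The labels were checked on Hopx, whose mean was 35.6-fold lower in Hopx-deficient cells (probe sets at -5.44 and -4.87). Markers of other cells were read beside the mitosis genes. All 12 tissue macrophage markers were higher (0.31 to 0.93, median 0.40), all 7 measured B cell markers lower (-0.41 to -0.01, median -0.21), and 7 of 9 Treg markers higher (median 0.28). The 6 measured T cell markers had a median of 0.21, with 4 higher and 2 lower, namely Cd4 (-0.01) and Thy1 (-0.05). Markers of other types went both ways. Those of germinal centre B cells ran from -0.37 (Mybl1) to 0.39 (Bcl6), those of dendritic cells from -0.20 (Siglech) to 0.31 (Cd209a) and those of CD8 T or NK cells from -0.42 (Klrd1) to 0.19 (Eomes), with medians of 0.0022, -0.03 and -0.06. Erythroid markers ran from -0.0075 to 0.07. Their levels on each array cannot be given, and the part of other cells in the mitosis gene differences was not tested.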

How the data were processed

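The authors deposited log2-type array values for 45101 probe sets, from which the mean of both arrays had been subtracted at every probe set: the columns sum to 0 within 1e-06. The summarisation, the scaling between arrays and the log base are not given in the sources used here; base 2 was assumed, and natural logs would enlarge each difference by 1.44. Per the labels, total RNA was extracted with Trizol and labelled with biotin.

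Gene names came from the 2016 annotation of the platform, updated by gene ID (GRCm38.p6 gene table; 34741 of 34945 single-symbol probe sets found). Control probe sets (64) and those with several symbols (932) or none (9160) were left out. Differences were centred on the median of single-symbol probe sets (0.0075) and averaged per gene. The number of arrays limits the precision. The members, their 10 roles, the companion lists, the markers and the thresholds of 1.5-fold and of 0.322 on the log2 scale, rules of size and not tests, were chosen with earlier results of these data known. Named are all members, in each companion list the 3 genes furthest from 0 and all those 1.5-fold apart, and Hopx. Rbl2, Cdkn3 and the printed promoters were chosen after their values were seen. Alternatives were no centring, other probe set summaries and filters, natural logs and other thresholds. The averaging was tested on simulated data. The software was Python 3.11.15 with pandas 2.3.3 and numpy 2.4.6.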

Additional observations from a re-analysis of the deposited data

How the results depend on the processing

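The median of the mitosis genes stayed below 0 under all 8 alternatives, between -0.19 and -0.11, and that of the replication genes between -0.73 (natural logs) and -0.49. Not all of the 8 could test the sign of a median. Natural logs only rescale the values, and no centring shifts each by 0.0075. Leaving out probe sets whose value steps place an array below 4 removed 2 member probe sets. The medians of the role groups with more than 1 gene kept their sign under the same 8 but moved in size, those of the kinases between -0.33 and -0.12, the kinesins between -0.15 and -0.04, the passenger complex between -0.21 and -0.08 and the checkpoint between -0.30 and -0.20. The exception in sign was the centromere and kinetochore group, which turned from -0.11 to 0.081 without probe sets ending in _s_at, _x_at or _a_at and to 0.27 over genes with 2 or more probe sets. The first setting removes Nuf2, whose single probe set ends in _a_at, and the second removes Nuf2 and Ndc80, which have 1 probe set each. Members below 0 numbered 37 as reported and, among settings that kept all 52, at fewest 35, with the median over probe sets. The count of members at least 1.5-fold lower, 0 as reported, was 1 with natural logs and 2 at a threshold of 0.322 on the log2 scale. The count at least 1.5-fold higher, also 0, was 1 with natural logs, 1 with the probe set furthest from 0, 1 without those suffixes and 4 at 0.322. The alternative that left out probe sets whose value steps place an array below 8 was chosen after seeing the data. No paired analysis was possible because there is 1 array of each genotype; for the same reason none could be omitted.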

Other observations

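The S phase and G2/M gene lists that come with the R package Seurat, added after the values of the mitosis genes were seen, are given for comparison. All 41 measured S phase genes were lower, with a median of -0.45 and a range from -1.09 to -0.13. Of 53 measured G2/M genes 37 were lower and 16 higher, with a median of -0.09. Of its 54 genes 30 are among the mitosis genes described above; the other 23 that were measured had a median of -0.05, with 16 lower and 7 higher. The S phase list holds none of the mitosis genes, but 23 of its 41 measured genes are also in the replication list, so the 2 medians are not independent. The other 18 were all lower, with a median of -0.36.

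A further probe set, named for Foxm1 together with Tex52 and Pebp1 and therefore left out of gene values, differed by -0.36.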
